A study of Homo sapiens with 6 samples.

Results

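The response of A375 melanoma cells to the BRAF inhibitor vemurafenib was compared between eIF4B-knockout cells and knockout cells with eIF4B restored. For each gene the response difference was the change under drug in the knockout line minus the change under drug in rescued cells, on the log2 scale, at 6 h and at 18 h. A gene was a member where this difference was at least 1 log2 unit (2-fold) in the same direction at both times, and 13 of 13506 genes tested met that rule (0.0963%). In 12 of them (0.0888%) the knockout line had the lower value, and in 1, EGR1 (0.0074%), the higher. A gene was tested where its brightest probe set averaged at least 5 log2 units over the arrays.

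A375 is an established human melanoma line that depends on an activated BRAF kinase. CRISPR was used to disrupt EIF4B in it, and lentivirus then introduced LacZ as a control (KO/LacZ, called the knockout line here) or eIF4B (KO/eIF4B, here the rescued cells). Both lines therefore carry the knockout and a lentiviral insert, and parental cells were not analysed here. Each line was given DMSO or vemurafenib at 10 µM, the drug for 6 h or 18 h, with 1 array per combination and 6 arrays in all. No label gives the time of the DMSO (vehicle) arrays or says whether the lines are single clones, so time in culture cannot be told apart from drug, nor a difference between the derived lines from eIF4B. The number of arrays limits the precision of every value.

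Vemurafenib blocks mutant BRAF and lowers ERK signalling. eIF4B is an RNA-binding cofactor of the helicase eIF4A, which unwinds mRNA leaders before translation starts. ATF4 is the main transcriptional effector of the integrated stress response: its mRNA is translated better when initiation factor eIF2 is phosphorylated, and it then switches on genes for making and importing amino acids, charging tRNAs and limiting growth. Many ATF4 targets carry a composite element for C/EBP and ATF proteins near their start. EGR1, in contrast, is an immediate early gene driven by ERK through serum response elements, whose core is the CArG box.

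Upstream sequence of 4 genes is shown because their levels set out the contrasts described below. ASNS and CHAC1 stood less far above vehicle in knockout cells, ATF3 is an ATF4-list gene without such a difference, and EGR1 is the member with the opposite sign. Each line gives the 250 bases before the RefSeq start (GRCh38.p14), on the gene's strand, 5′ to 3′. Capitals in ASNS (chr7:97872409-97872658, minus strand), CHAC1 (chr15:40953221-40953470, plus strand) and ATF3 (chr1:212565157-212565406, plus strand) mark the C/EBP-ATF core TGATGNAA, searched on both strands. Capitals in EGR1 (chr5:138465229-138465478, plus strand) mark CArG boxes.
ASNS: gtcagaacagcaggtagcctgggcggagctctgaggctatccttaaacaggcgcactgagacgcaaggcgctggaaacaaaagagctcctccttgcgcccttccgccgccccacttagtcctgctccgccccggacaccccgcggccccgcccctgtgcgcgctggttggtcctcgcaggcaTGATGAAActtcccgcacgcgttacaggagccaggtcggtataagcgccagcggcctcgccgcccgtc
CHAC1: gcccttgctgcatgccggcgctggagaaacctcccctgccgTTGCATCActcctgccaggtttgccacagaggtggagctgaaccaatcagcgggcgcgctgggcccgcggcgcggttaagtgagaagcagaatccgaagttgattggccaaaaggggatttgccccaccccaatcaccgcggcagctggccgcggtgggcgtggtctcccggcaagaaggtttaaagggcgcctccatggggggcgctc
ATF3: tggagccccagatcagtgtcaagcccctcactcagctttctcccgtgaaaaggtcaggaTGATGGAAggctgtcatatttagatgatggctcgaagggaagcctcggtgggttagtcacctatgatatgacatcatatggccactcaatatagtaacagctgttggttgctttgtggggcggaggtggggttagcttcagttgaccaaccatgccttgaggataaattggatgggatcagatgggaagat
EGR1: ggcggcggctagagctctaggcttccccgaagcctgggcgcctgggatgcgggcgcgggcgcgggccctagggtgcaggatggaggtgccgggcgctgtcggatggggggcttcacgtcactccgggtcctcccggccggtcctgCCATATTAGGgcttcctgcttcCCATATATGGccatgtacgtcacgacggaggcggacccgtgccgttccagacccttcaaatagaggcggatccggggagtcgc
The ASNS match, TGATGAAA, lies 68 to 61 bases before the start. That of CHAC1 is on the opposite strand, TTGCATCA, 209 to 202 bases before it, and that of ATF3, TGATGGAA, lies 191 to 184 bases before it. EGR1 has 2 CArG boxes, CCATATTAGG and CCATATATGG. The C/EBP-ATF core was found in 177 of the 10858 tested genes with an upstream sequence in the RefSeq table (1.63%), in 4 of 34 genes of the ATF4 list (AARS1, ASNS, ATF3 and CHAC1) and in 2 of 9 members (ASNS and S100P). A CArG box was found in 112 of the 10858 (1.03%) and in 2 of 9 members (EGR1 and CYP1A1). A match is a stretch of letters and no evidence of binding in these cells.

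The arrays were alike in overall signal, with medians of 5.193 to 5.221 on the log2 scale and 3′ to 5′ differences of -0.01 to 0.04 for GAPDH and 0.13 to 0.18 for ACTB. EIF4B itself read 8.40, 8.53 and 8.53 in knockout cells at vehicle, 6 h and 18 h, and 10.07, 10.14 and 10.28 in rescued cells. Its line difference was nearly the same in all pairs (-1.67, -1.61 and -1.75), so its response difference was 0.06 at 6 h and -0.08 at 18 h. The melanoma markers SOX10 (9.86 to 10.57), MITF (8.10 to 9.97) and S100B (7.42 to 8.44) were well measured in every array, while PMEL was dim (5.54 to 5.81). None of the 6 epithelial, 5 fibroblast and 4 blood cell markers tested had a response difference of 0.5 log2 units at both times. Over all genes tested 0.533% had one, so a count of 0 in lists this short is near the background. Levels are log2 of the deposited RMA intensity, a background-corrected and quantile-normalised probe set signal. In such bulk RNA fewer cells of a type and less RNA per cell cannot be told apart.

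The response difference equals the line difference under drug minus the line difference under vehicle. It can therefore arise in the treated pairs, where knockout and rescued cells part under drug, or in the vehicle pair, where they already differ and meet under drug. Members were sorted by the share of their mean response difference that came from the vehicle pair: under 1/3 was called treated origin, over 2/3 vehicle origin, and the rest mixed. Of the 13 members, 8 were of treated origin, 4 of vehicle origin and 1 mixed. The values at 6 h and 18 h share the vehicle arrays, so a departure in 1 vehicle array enters both, and agreement between the times is no replicate of the vehicle pair. With 1 array per group the difference at a single time had no test. A limma term for a difference shared by both times, fitted over all 6 arrays with 1 residual degree of freedom, called 0 of 13506 genes (percent called 0.0, lowest Benjamini-Hochberg adjusted p 0.81, and 302 genes, 2.24%, at an unadjusted p under 0.05). A prior that follows signal strength called 11, among them 8 of the 13 members. The members are therefore a description by size.

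**Figure D1:**
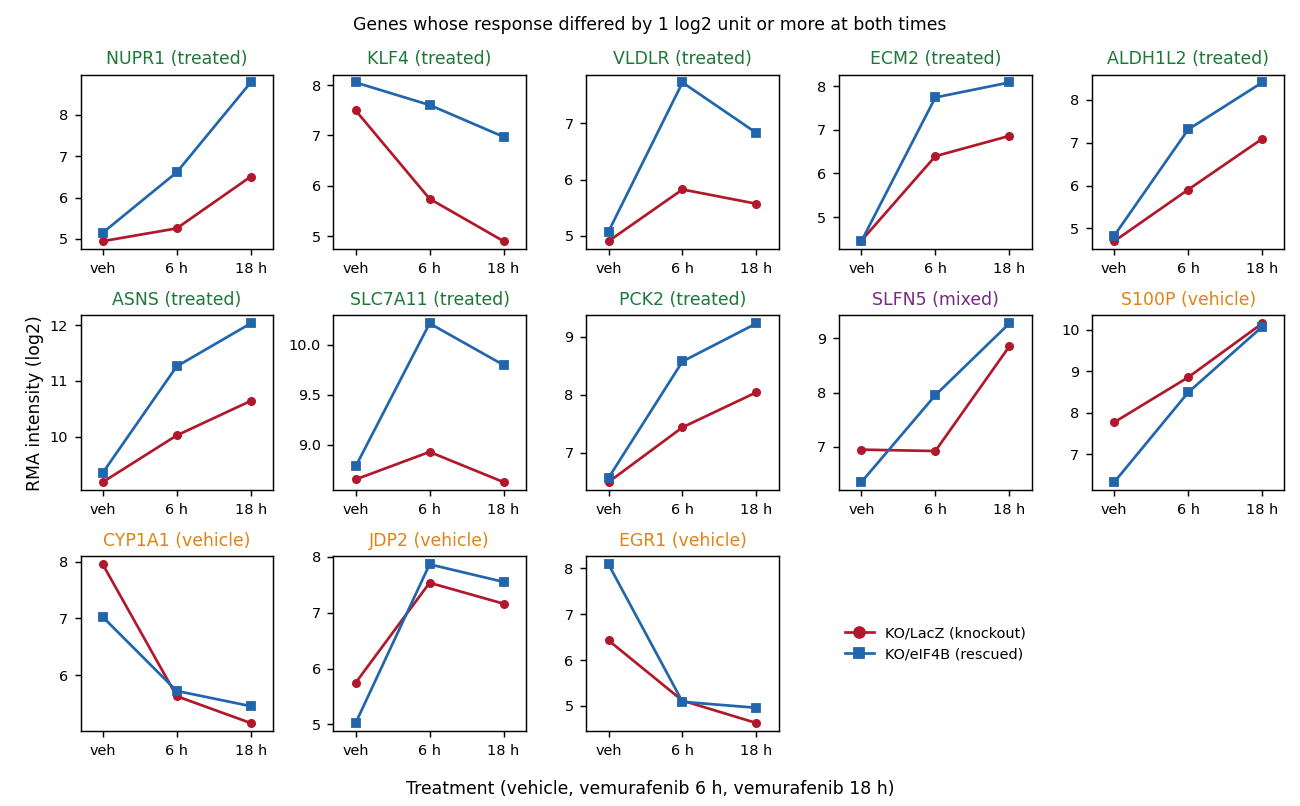
Level of each of the 13 members in the 6 arrays (log2 RMA intensity, 1 array per point) for the knockout line (circles) and the rescued line (squares) under vehicle, 6 h and 18 h of vemurafenib; the origin of the difference stands beside each name. The lines lie further apart under drug than under vehicle in the first 8 panels, of which KLF4 already starts 0.56 lower in knockout cells, whereas S100P, CYP1A1 and EGR1 start apart and come together.

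The treated-origin members were mostly ATF4 targets whose level under vemurafenib stood less far above vehicle in the knockout line. They were NUPR1, VLDLR, ALDH1L2, ASNS, SLC7A11 and PCK2, all in the ATF4 list, and ECM2 and KLF4, which are not. Under vehicle the lines differed by at most 0.20 log2 units in 7 of these members, and by -0.56 in KLF4. Under drug the differences of the 8 ran from -1.14 to -2.28. In 4 of the 7, ECM2, ALDH1L2, NUPR1 and VLDLR, the vehicle levels were dim (4.45 to 5.15), where a vehicle difference could hardly show, so their origin rests on the levels under drug. ASNS, SLC7A11 and PCK2 were well measured under vehicle in both lines.

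ASNS makes asparagine from aspartate and glutamine. It read 9.19, 10.02 and 10.64 in knockout cells at vehicle, 6 h and 18 h, and 9.35, 11.26 and 12.03 in rescued cells. The rescued line thus stood 3.75-fold above its vehicle at 6 h and 6.40-fold at 18 h, the knockout line 1.79-fold and 2.74-fold. Both treated arrays of the rescued line were above either treated array of the knockout line. The response difference was -1.07 at 6 h and -1.22 at 18 h (mean -1.15, SE 0.15 from the fit). ASNS was the brightest member, with a mean level of 10.42.

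SLC7A11 encodes the cystine-glutamate exchanger that supplies cysteine for glutathione. The levels were 8.66, 8.93 and 8.63 in knockout cells and 8.78, 10.21 and 9.80 in rescued cells, in the same order of treatments. Only the rescued line departed from its vehicle by more than 0.5 log2 units, so that the gene stood 2.69-fold above vehicle at 6 h in the rescued line and 1.21-fold in the knockout line. The response difference was -1.15 and -1.04. The other 2 probe sets of the gene, which did not enter the choice of members, gave response differences of -1.23 and -1.12 in one and of -1.16 and -0.91 in the other.

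PCK2, a mitochondrial enzyme that turns oxaloacetate into phosphoenolpyruvate, read 6.49, 7.44 and 8.04 in knockout cells and 6.57, 8.58 and 9.23 in rescued cells. ALDH1L2, a mitochondrial folate enzyme, read 4.71, 5.91 and 7.09 against 4.83, 7.31 and 8.40. Both genes were higher at 18 h than at 6 h in each line, with the knockout line behind at each time. The response differences of PCK2 were -1.06 and -1.12, and those of ALDH1L2 -1.27 and -1.18.

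NUPR1, a stress-induced chromatin cofactor, had the largest difference at 18 h. It read 4.95, 5.26 and 6.51 in knockout cells and 5.15, 6.61 and 8.78 in rescued cells. At 18 h the rescued line was 12.4-fold above its vehicle and the knockout line 2.95-fold, a response difference of -2.07 after -1.15 at 6 h. VLDLR, a lipoprotein receptor, had the largest difference at 6 h. Its levels were 4.91, 5.83 and 5.57 in knockout cells and 5.08, 7.73 and 6.83 in rescued cells, which gave -1.73 and -1.09. Their means over all arrays were 6.21 and 5.99. VLDLR lies just under the mean of 6 set for naming and is named as a member outside that rule, chosen after its values were seen.

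ECM2, a matrix protein, had the same pattern: it read 4.46, 6.40 and 6.86 there and 4.45, 7.74 and 8.08 in rescued cells. Its response differences were -1.36 and -1.24, from vehicle levels that differed by 0.01. KLF4, a Krüppel-like transcription factor, went the other way under drug. It read 7.50, 5.74 and 4.90 in knockout cells and 8.05, 7.61 and 6.97 in rescued cells, so it stood further below vehicle in the knockout line. The response differences were -1.31 and -1.52, and the vehicle pair already differed by -0.56 in the same direction. A second KLF4 probe set, with a mean of 5.21, gave -0.89 and -0.73.

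The line difference within the treated pairs uses no vehicle array in its estimate. In the same limma fit it was called for 50 of 13506 genes (0.37%) at a Benjamini-Hochberg threshold of 0.05 and for 1876 (13.9%) at an unadjusted p under 0.05. Of the 50, 33 were lower (0.244%) and 17 higher (0.126%) in the knockout line. Among them were 7 of the 8 treated-origin members, all but NUPR1, and none of the other 5. Since the same arrays chose the members, this count is given as a description. NUPR1 had a larger mean difference (-1.82) than ASNS (-1.31), but its 6 h and 18 h values lay further apart.

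**Figure D2:**
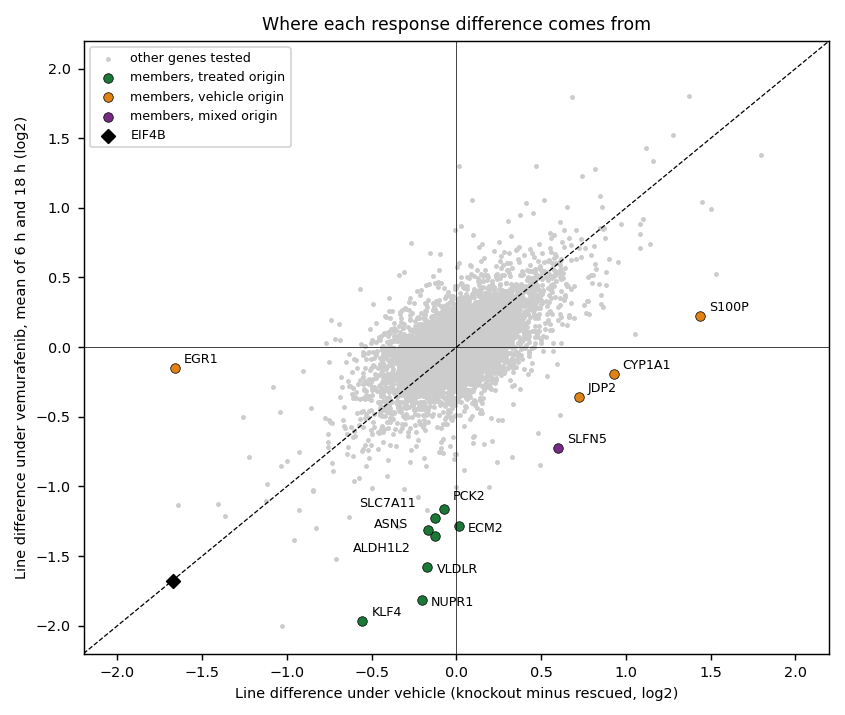
Line difference (knockout minus rescued, log2) under vehicle on the x axis against the mean line difference under vemurafenib at 6 h and 18 h on the y axis, 1 point per gene tested; genes on the dashed diagonal have no response difference. Of the 8 treated-origin members, all below the diagonal, 7 lie near 0 on the x axis and KLF4 at -0.56, EGR1, S100P, CYP1A1 and JDP2 lie to the side, and EIF4B (diamond) lies on the diagonal.

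The vehicle-origin members differed between the lines before drug. S100P, a calcium-binding protein of the S100 family, read 7.77, 8.85 and 10.15 in knockout cells and 6.34, 8.49 and 10.07 in rescued cells. The knockout line was 2.71-fold higher under vehicle and 1.06-fold higher at 18 h, so the rise in the rescued line was the larger (13.3-fold against 5.19-fold at 18 h) although both ended at nearly the same level. CYP1A1, the xenobiotic-metabolising enzyme that the aryl hydrocarbon receptor induces, had the falling version of the pattern. Its levels were 7.95, 5.63 and 5.16 in knockout cells and 7.02, 5.72 and 5.45 in rescued cells, with response differences of -1.02 and -1.22 and a vehicle difference of 0.93.

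EGR1 was the only member with a positive response difference. It read 6.43, 5.12 and 4.63 in knockout cells and 8.09, 5.09 and 4.96 in rescued cells. Under vehicle the knockout line was 3.16-fold lower, and at 6 h the lines differed by 0.03. The response differences of 1.69 and 1.33 thus came from a higher start in the rescued line and close levels under drug. Those levels were dim in both lines (4.63 to 5.12), where a line difference under drug could hardly show. The other EGR1 probe sets were dimmer than the level for testing. One, with a mean of 4.49, gave response differences of 1.03 and 0.40, and the other, with a mean of 3.52, gave 2.22 and 1.73. EGR1 has a mean of 5.72 and is named outside the rule, after its values were seen. Vehicle differences of other immediate early genes were smaller. That of KLF4 came next in the list, with -0.56. FOS differed by -0.16 under vehicle, JUN by -0.32, EGR3 by -0.21 and NR4A1 by -0.02. In the list of 21 such genes 1 (EGR1) was above and 1 (KLF4) below by 0.5 log2 units at both times, with medians of 0.08 at 6 h and 0.00 at 18 h.

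JDP2 and SLFN5 had parts of both. JDP2, a basic leucine zipper repressor of the AP-1 family and the remaining member in the ATF4 list, read 5.74, 7.54 and 7.16 in knockout cells and 5.02, 7.87 and 7.55 in rescued cells. It lay on the border between classes, with 66.7% of its mean difference from the vehicle pair. The knockout line was higher under vehicle by 0.72 and lower under drug by 0.33 and 0.39. SLFN5, an interferon-inducible Schlafen family gene, read 6.95, 6.92 and 8.85 against 6.35, 7.95 and 9.27, with 45.2% from the vehicle pair. The 5 other SLFN5 probe sets had vehicle differences of -0.06 to 0.19 and 6 h differences of -0.67 to -1.47, and their 18 h differences ran from -0.66 to 0.02, short of the size that made the brightest probe set a member. All SLFN5 probe sets thus had a negative difference at 6 h, and the vehicle difference was larger in the brightest one (0.60) than in the others.

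Across the members, 12 of 13 departed from vehicle in the same direction in both lines (by 0.5 log2 units or more on the mean of the times) and SLC7A11 in the rescued line only. No member went opposite ways. In 10 members the rescued line's rise was the larger, in KLF4 and CYP1A1 the knockout line stood further below vehicle, and in EGR1 less far. Members just inside the rule were CYP1A1 (-1.02 and -1.22), SLFN5 (-1.63 and -1.02) and SLC7A11 (-1.15 and -1.04). Those just outside were CBS (-0.96 and -1.17), TXNIP (-0.92 at 6 h), LURAP1L (-1.28 and -0.92) and DLGAP1-AS6 (-0.92 and -1.09), the last 2 dim with means of 5.81 and 5.36. With values under 5 set to 5 the mean of LURAP1L went from -1.10 to -0.62.

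Other probe sets of the members gave a reading of the same RNA that the rule did not use. Of 9 such probe sets with a mean of at least 5, in 4 members, 8 had the members' sign at both times. Of 6 dimmer ones, in 5 members, 4 had it. For ASNS, ECM2 and JDP2 the second probe set was near the bottom of the scale, with means of 2.78, 4.17 and 4.08. Averaging all probe sets of a gene, dim ones included, moved the mean response difference from -1.15 to -0.61 for ASNS, from -1.30 to -0.67 for ECM2, from -1.23 to -0.77 for ALDH1L2, from -1.08 to -0.50 for JDP2 and from -1.32 to -0.87 for SLFN5.

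The genes of the ATF4 pathway were read from a list of 42, of which 40 were tested. The list was chosen with earlier results of these data known and includes 7 of the members. Its counts and medians therefore partly restate the choice of members and are a description. In 37 of the 40 the response difference was below 0 at both times and in none above 0 at both; over all genes tested these shares were 31.9% and 26.6%. The list medians were -0.52 at 6 h and -0.60 at 18 h, against -0.02 and 0.00 over all genes tested. By 0.5 log2 units or more at both times, 17 list genes were lower in the knockout line, where 0.363% of all genes were, and 0 were higher. In limma the shared term called 0 of the 40 after Benjamini-Hochberg adjustment. At an unadjusted p under 0.05 it held 26 of them, against 2.24% of all genes tested. Under vehicle the lines differed by a median of -0.05 in this list. Median changes from vehicle were 0.28 at 6 h and 0.26 at 18 h in knockout cells and 0.83 and 0.79 in rescued cells. On the mean of the times, 28 list genes stood 0.5 log2 units or more above vehicle in the rescued line against 15 in the knockout line. Over all 13506 genes tested 1235 did so in the rescued line and 1258 in the knockout line.

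**Figure D3:**
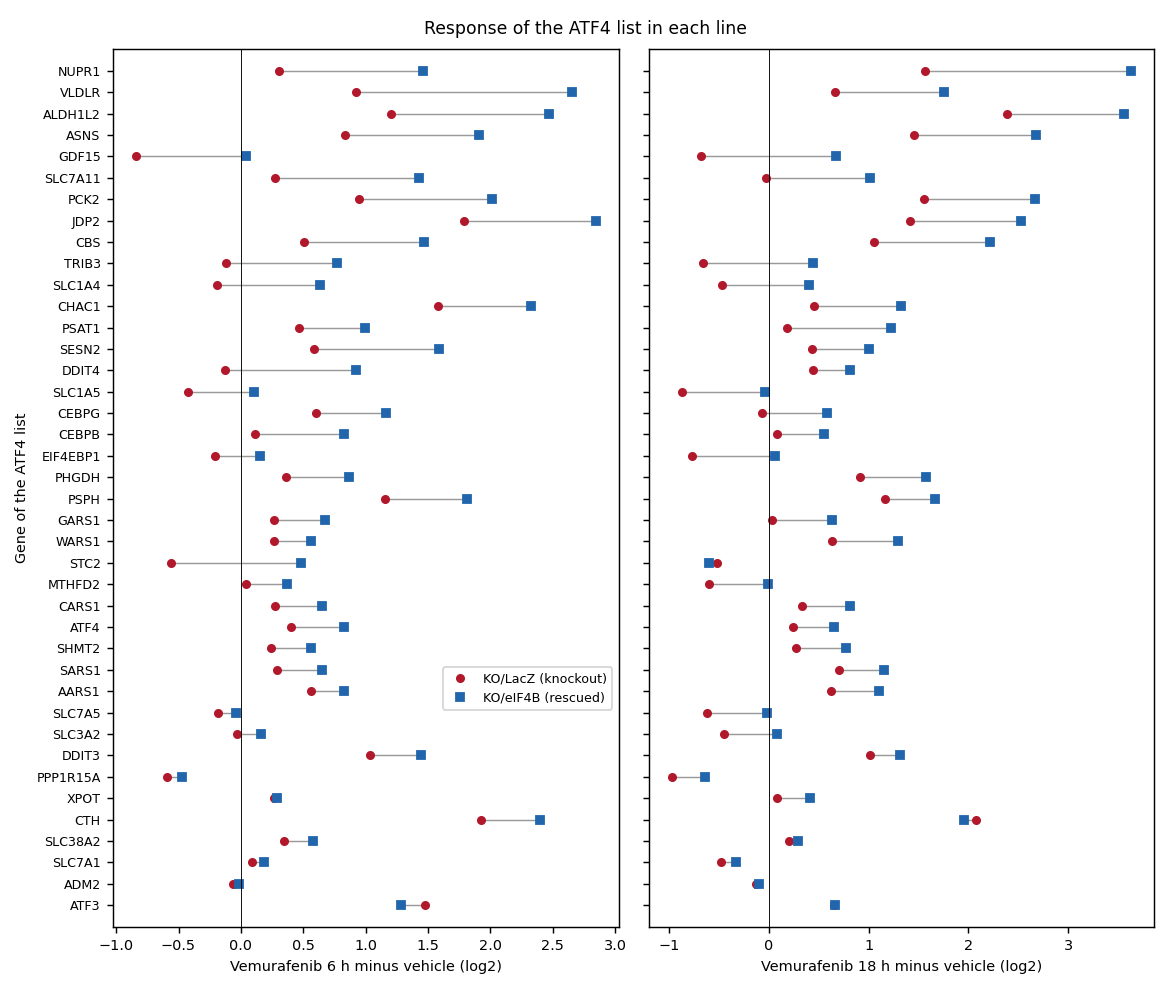
Change from the line's own vehicle (log2) at 6 h (left) and 18 h (right) for each of the 40 tested genes of the ATF4 list, sorted by mean response difference; circles mark knockout and squares rescued cells, 1 array against 1 array. The squares lie to the right of the circles for all but a few genes, with the widest gaps in NUPR1, VLDLR, ALDH1L2 and ASNS.

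ATF4 mRNA itself read 12.02, 12.43 and 12.26 in knockout cells and 11.71, 12.54 and 12.37 in rescued cells. Its response difference was -0.42 at both times and came mostly from the vehicle pair, where the knockout line was 0.31 higher; under drug the lines differed by -0.12 and -0.11. The mRNA of the factor was therefore close between the lines under drug while many of its targets were not. ATF4 protein was not measured. Of the 7 transcription factors and cofactors, 6 were lower at both times, the exception being ATF3 (0.20 and -0.01), which read 7.36, 8.84 and 8.01 against 7.67, 8.95 and 8.33. CEBPG, a partner of ATF4, had -0.56 and -0.65 and CEBPB -0.72 and -0.48.

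DDIT3, the stress factor CHOP, and CHAC1, an enzyme that degrades glutathione, differed in another way. DDIT3 read 7.95, 8.98 and 8.96 in knockout cells and 8.55, 9.99 and 9.87 in rescued cells. Its gap was there before drug (-0.61) and widened to -1.01 and -0.91, so that the response difference was only -0.41 and -0.30. CHAC1 read 5.99, 7.57 and 6.44 against 6.70, 9.02 and 8.03, from a vehicle difference of -0.71 to treated differences of -1.46 and -1.59. In limma 10 of the 40 tested list genes were called lower in the treated pairs, against 0.244% of all genes tested. DDIT3 and CHAC1 were among the 10, at Benjamini-Hochberg adjusted p-values of 0.028 and 0.018 in that limma fit.

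Among the 10 enzymes of amino acid and one-carbon synthesis, 9 were lower at both times, with mean response differences from -1.23 to -0.17. CBS, which starts cysteine synthesis from homocysteine and had a mean of -0.69 over all its probe sets against -1.06, read 6.28, 6.78 and 7.33 in knockout cells and 6.04, 7.50 and 8.25 in rescued cells. In the serine pathway PHGDH had differences of -0.51 and -0.66, PSAT1 of -0.53 and -1.04 and PSPH of -0.66 and -0.49. PSAT1 stood at 11.50 and 11.51 under vehicle and at 11.68 and 12.73 at 18 h in the knockout and rescued line. CTH, which follows CBS, was the exception, with -0.47 at 6 h and 0.13 at 18 h.

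All 7 amino acid transporters were lower at both times, from -1.10 to -0.13 on the mean. After SLC7A11 came SLC1A4, a carrier of alanine, serine and cysteine, with levels of 7.41, 7.22 and 6.95 in knockout cells and 7.64, 8.27 and 8.04 in rescued cells. SLC1A5, a glutamine carrier, read 9.41, 8.99 and 8.55 against 9.50, 9.60 and 9.46. Both knockout values under drug lay below vehicle in each gene, while the rescued line lay above vehicle for SLC1A4 and within 0.11 of it for SLC1A5. The heavy and light chains SLC3A2 (-0.19 and -0.53) and SLC7A5 (-0.14 and -0.60) differed mainly at 18 h, and SLC7A1 hardly (-0.10 and -0.15).

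The tRNA synthetases and the tRNA exporter XPOT had smaller differences of one sign: all 6 tested were lower at both times, from -0.51 for GARS1 to -0.18 for XPOT on the mean, and 0 reached 0.5 at both. In the group of feedback and growth control genes all 6 were lower. TRIB3, a pseudokinase that restrains ATF4, read 9.72, 9.61 and 9.07 in knockout cells and 9.90, 10.67 and 10.34 in rescued cells. SESN2, an inhibitor of mTORC1, had -1.01 and -0.56, and DDIT4, another, -1.05 and -0.37. PPP1R15A, the phosphatase subunit that reverses eIF2 phosphorylation, had -0.12 and -0.33. GDF15, a secreted stress cytokine, read 6.30, 5.46 and 5.62 against 5.97, 6.01 and 6.65, so the knockout line was below its vehicle at both times and the rescued line was not.

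No other list of the 31 shifted to that extent. Their medians lay between -0.20 and 0.09 at 6 h and between -0.15 and 0.15 at 18 h. The ER chaperones, which belong to other branches of the unfolded protein response, had medians of -0.01 and -0.06, with XBP1 alone of 20 past 0.5 at both times (-0.67 and -0.58, with a mean of -0.31 over all its probe sets). XBP1, a transcription factor of the unfolded protein response, read 8.23, 8.35 and 7.71 against 8.25, 9.04 and 8.30. Of the 24 ERK output and feedback genes, whose medians from vehicle were -2.46 and -2.48 in knockout cells and -2.51 and -2.87 in rescued cells, EGR1 alone passed 0.5 in one direction at both times. At single times others did: ETV1 had -0.57 and 0.75, MAFF -0.79 at 6 h, SPRY4 0.60 at 6 h and MYC -0.48 and -0.70. DUSP6, a phosphatase of ERK, had -0.28 and -0.38, but it was dim under drug in both lines (4.60 to 4.91). With values under 5 set to 5 its differences were -0.14 at both times. ETV1, MAFF, SPRY4, MYC and DUSP6 were chosen after their values were seen. Translation initiation factors (33 tested), ribosomal proteins (40), ribosome biogenesis (26), G1/S (32) and G2/M (28) had 0 genes past 0.5 in one direction at both times, as did the interferon list (26) and the 13 mRNAs reported elsewhere as sensitive to eIF4B. Over all genes tested 0.533% passed, so a count of 0 in lists of this length is near the background. In limma the shared term called 0 genes of these lists after Benjamini-Hochberg adjustment, and 1 of the initiation factors, 1 of the interferon genes and 2 of the 13 mRNAs had an unadjusted p under 0.05. Over all genes tested that share was 2.24%. Of the 13 mRNAs, 8 were below 0 at both times and 3 above, where 31.9% and 26.6% of all genes tested were. Their medians were -0.03 at 6 h and -0.13 at 18 h. At 18 h alone EIF4EBP1, an inhibitor of cap-dependent translation, had -0.83, and ODC1, which starts polyamine synthesis, -0.75.

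**Figure D4:**
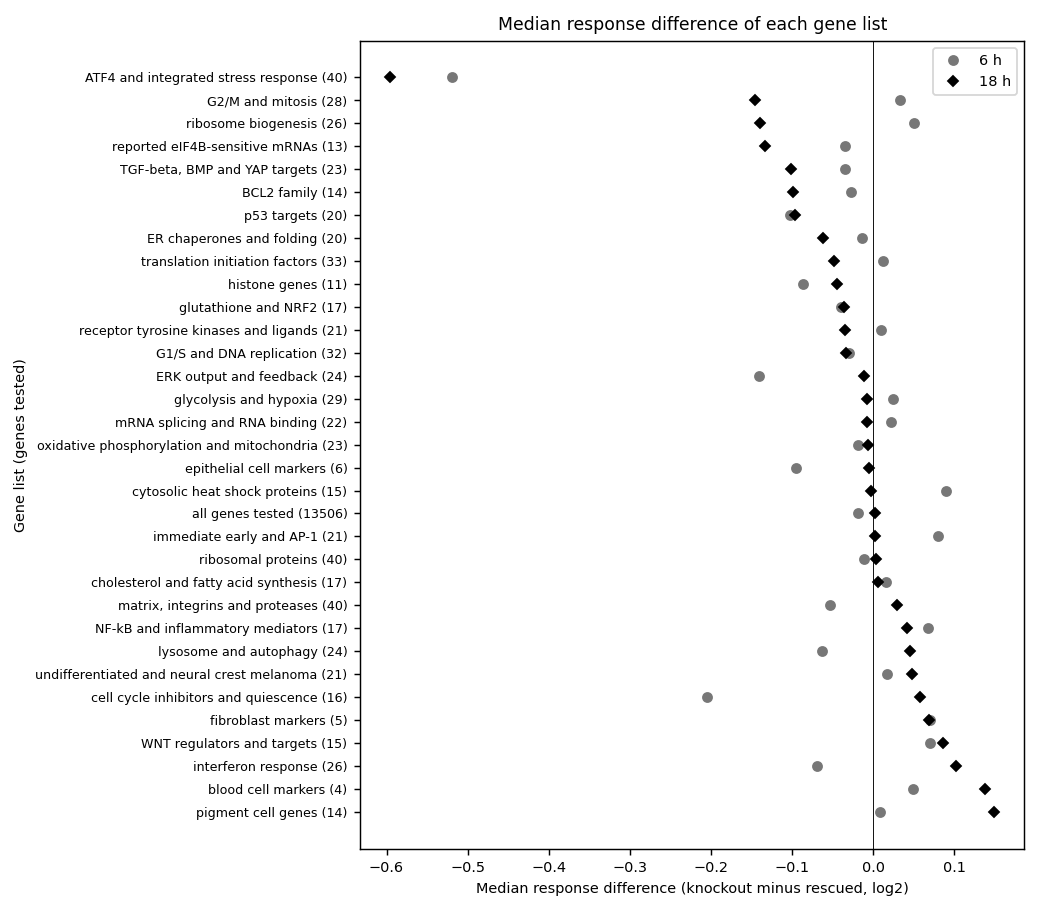
Median response difference (knockout minus rescued, log2) at 6 h (circles) and 18 h (diamonds) for each gene list, with the number of genes tested in brackets. The ATF4 list lies at -0.52 and -0.60 and the other lists between -0.20 and 0.15.

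A wider size of 0.5 log2 units at both times held 72 genes (0.533% of those tested), 49 lower (0.363%) and 23 higher (0.17%) in the knockout line. The origins differed between the directions: of the 49 lower, 32 were of treated origin, 9 of vehicle origin and 8 mixed, whereas of the 23 higher, 4 were of treated origin, 13 of vehicle origin and 6 mixed. The directions differed in signal too: 33 of the 49 lower genes had a mean level of at least 6, against 6 of the 23 higher. Whether the contrast of origins follows signal was not tested. Of the 32 lower genes of treated origin 16 were in the ATF4 list. The other 16 included ASS1, which makes argininosuccinate (4.78, 4.74 and 6.21 in knockout cells, 4.74, 5.28 and 7.43 in rescued cells). With values under 5 set to 5 the 6 h difference of ASS1 was -0.28, below the wider size, and its mean went from -0.93 to -0.75. Also among the 16 were PMAIP1, the proapoptotic NOXA (9.44, 8.88 and 7.78 against 9.75, 9.81 and 8.88), and the clock repressors BHLHE40 and BHLHE41. PTX3, an inflammatory pattern receptor, and ANKRD1, a target of YAP, stood further below vehicle in the knockout line, with differences of -0.79 and -0.93 for PTX3 and -0.74 and -0.77 for ANKRD1. ANKRD1 was dim under drug in knockout cells (4.93 and 4.49), and with values under 5 set to 5 its mean difference went from -0.76 to -0.46. For BHLHE40 the same floor moved it from -0.88 to -0.53 and changed the origin to mixed. Over all BHLHE40 probe sets the mean was -0.41, and a second probe set, with a mean level of 4.87, gave 0.06 at both times.

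Only 4 genes of the wider set were higher in the knockout line with treated origin. MC4R, a melanocortin receptor, read 4.05, 6.01 and 8.21 in knockout cells and 4.06, 5.26 and 7.28 in rescued cells. DOCK8, an exchange factor for CDC42, read 3.94, 6.36 and 7.93 against 3.47, 5.21 and 6.48. MAP3K5, the stress kinase ASK1, read 7.18, 7.32 and 7.69 against 7.34, 6.86 and 6.80, and a second probe set gave response differences of 0.25 and 0.88. UPK3B had response differences of 0.62 and 0.63. Under vehicle MC4R and DOCK8 were dim, at 3.47 to 4.06. With values under 5 set to 5 the mean of DOCK8 went from 0.83 to 1.30 and that of MC4R from 0.85 to 0.84. UPK3B was also dim under vehicle, at 4.80 in knockout cells and 4.99 in rescued cells. With the same floor its response differences were 0.44 and 0.45, below the size counted for the wider set, and its mean went from 0.63 to 0.44. These 4 genes fall outside the naming rule and were chosen after their values were seen, as were the ATF4-list genes past the first 4.

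Among the vehicle-origin genes of the wider set, TXNIP, an inhibitor of thioredoxin that tracks glucose supply, read 8.94, 10.48 and 11.04 in knockout cells and 7.88, 10.34 and 10.99 in rescued cells. The knockout line was 1.05 higher under vehicle and 0.14 and 0.05 higher under drug. Other TXNIP probe sets had the same signs at smaller sizes. That with a mean of 9.27 had a vehicle difference of 0.95 and response differences of -0.82 and -0.91. That with a mean of 9.05 had 0.46, with -0.38 and -0.39. Over all TXNIP probe sets the mean response difference was -0.74 against -0.96. The TXNIP relatives ARRDC4 (0.38 under vehicle, 0.15 and 0.13 under drug) and ARRDC3 (0.23, -0.15 and 0.28) showed less under vehicle. The value of ARRDC4 was close to that of the TXNIP probe set with 0.46. XYLT1, an enzyme of proteoglycan assembly, was 1.53 higher in the knockout line under vehicle and 0.77 and 0.29 higher under drug. In the other direction MGP, a matrix inhibitor of calcification, was 1.26 lower under vehicle (4.58 against 5.84), and RPRM, a mediator of G2 arrest, was 0.74 lower (4.34 against 5.08). Both were dim in knockout cells. With values under 5 set to 5, RPRM was of treated origin. The vehicle differences were then -0.84 for MGP and -0.08 for RPRM, and the mean response differences went from 0.75 to 0.34 and from 0.94 to 0.28. Each of these differences rests on 1 array per line, and the limma fit called 0 of 13506 line differences in the vehicle pair after Benjamini-Hochberg adjustment (lowest adjusted p 0.15, 918 genes or 6.8% at an unadjusted p under 0.05).

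The single times held more genes than both together. At 6 h 19 genes were lower by 1 log2 unit in the knockout line (0.141%) and 1 higher (0.0074%), and at 18 h 29 were lower (0.215%) and 28 higher (0.207%). At a size of 0.5 log2 units 176 were lower and 106 higher at 6 h, and 188 lower and 313 higher at 18 h. At 18 h the directions were thus nearly even at 1 log2 unit, and more genes were higher at 0.5. STC2, a secreted glycoprotein in the ATF4 list, was among the genes at 6 h only, with -1.04 and then 0.08. Over all genes the spread of the response difference was 0.186 at 6 h and 0.225 at 18 h (SD over genes).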

How the data were processed

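Total RNA of 6 A375 samples was hybridised as biotin-labelled cRNA to Affymetrix arrays, 1 per line and treatment. The deposited values are linear RMA intensities; RMA and affy are named in the submitters' processing notes, whose versions are not given in the sources used here. The method quantile-normalises the arrays together, so a change in total mRNA would not be seen, and compresses dim signals. Log2 was taken first. Of 54675 probe sets 41091 carry 1 gene symbol, 1801 several and 11721 are unnamed here; 41037 matched RefSeq GRCh38.p14 by gene identifier. Each gene was read by its brightest probe set, and 13506 with a mean of at least 5 were tested.

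The model in limma 3.58.1 (R 4.3.3) had terms for line, treatment and a line difference shared by both drug times, with 1 residual degree of freedom plus 4.42 from the prior, Benjamini-Hochberg adjustment and a threshold of 0.05. Its spread is the disagreement of the 6 h and 18 h line differences, and vehicle arrays are assumed to vary alike. Labels name no separate cultures, so p-values reflect the spread of these arrays, which may be technical. Tested on 10 simulated sets of 13506 genes, the shared term recovered 0.3% of changes of 0.5 log2 units, 13.3% of changes of 1 and 94.7% of changes of 2, and 6.3% of its calls were false. The simulated errors were drawn from the fitted prior, alike for all arrays. The false share therefore cannot show whether the vehicle arrays vary as assumed.

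Members and the 32 gene lists were chosen with earlier results of these data known. Named were members averaging 6 or more, up to 4 genes per list past 0.5 at both times, and EIF4B; others are marked in the text, and examples in lists at smaller sizes were chosen after seeing values. The roles within the ATF4 list were assigned after seeing the data. Alternatives were the probe set rule, the filter, a floor at 5, loess centring, other sizes, other class borders, and trended and robust priors. Leaving out the 6 h or the 18 h pair leaves the single-time values. Sequences are RefSeq's (GRCh38.p14).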

Additional observations from a re-analysis of the deposited data

Results flagged for a closer look

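Of the genes named in the text, 5 with a response difference of at least 0.5 log2 units at both times lay on opposite sides of their own vehicle in the lines at both times. The difference between the lines had no test at a single time, and limma's shared term called 0 of the 5 after Benjamini-Hochberg adjustment (5 at an unadjusted p under 0.05, and 1, TRIB3, with the trended prior). In GDF15 the knockout changes at 6 h and 18 h were -0.84 and -0.68 and the rescued ones 0.04 and 0.67, a mean response difference of -1.12. TRIB3 had -0.12 and -0.66 against 0.77 and 0.44 (mean -0.99), and SLC1A4 had -0.19 and -0.47 against 0.64 and 0.40 (mean -0.85). In the other direction MAP3K5 had 0.14 and 0.50 against -0.48 and -0.54 (mean 0.83). A second MAP3K5 probe set, with a mean of 7.02, gave response differences of 0.25 and 0.88. It read 7.32, 6.92 and 7.46 in knockout cells and 7.28, 6.64 and 6.54 in rescued cells. By that probe set both lines lay below vehicle at 6 h. RNF43, an E3 ligase that restrains WNT receptors, had 0.40 and 0.19 against -0.19 and -0.42 (mean 0.60), at a mean level of 5.13, close to the lowest tested. Several of these changes within a line are small, as the 0.04 of GDF15.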

How the results depend on the processing

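Sizes of 0.5 and 1.5 log2 units gave 72 and 0 genes at both times, 282 and 3 at 6 h, and 501 and 9 at 18 h, against 13, 20 and 57 at a size of 1. Averaging all probe sets of a gene gave 7, 12 and 34, and a mean of at least 6 gave 35 at 18 h. A trended prior called 11 genes for the shared term against 0, 749 in the treated pairs against 50, and 76 in the vehicle pair against 0. For the treated pairs, no filter gave 26, a floor at 5 gave 27 and loess centring gave 19. The cause of these moves was not tested. The remaining alternatives stayed within 1.5 times: at both times 11 to 17 genes, 8 to 10 of treated origin; the floor gave 3 higher and 12 lower genes at both times against 1 and 12. Members numbered 13 of 13 with the floor, 12 with loess centring and 7 with averaged probe sets. Of 219 single-gene values, those of genes outside the naming rule added after seeing the data, 198 moved by less than their SE, 21 by more, and 0 reversed. ATF4-list genes lower at both times were 36 or 37 under the alternatives added after seeing the data. No paired analysis was possible because the labels give no replicate numbers, so no block beyond the treatment terms could be added; without the 6 h or 18 h pair no test remains. Dim vehicle levels limit the folds of ECM2, ALDH1L2, VLDLR, NUPR1, MC4R, DOCK8 and MGP.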

Other observations

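Probe sets that carry several gene symbols or none were not used for the members. Of 4366 such probe sets with a mean of at least 5, 0 had a response difference of 1 log2 unit in the same direction at both times. The 11 genes that the trended prior called in limma for the shared response difference were ASNS, SLC7A11, TXNIP, TRIB3, S100P, KLF4, EGR1, PCK2, ECM2, ATF4 and SLFN5, with Benjamini-Hochberg adjusted p-values from 0.00056 for ASNS to 0.049 for SLFN5. ATF4 was in that set with a mean difference of -0.42, the smallest of the 11, and came from the vehicle pair.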
